A study of Saccharomyces cerevisiae with 9 samples.

Results

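The hexose transporter and glucose sensor genes of Saccharomyces cerevisiae were followed in wild type cells and in strains that lack successive steps of the Kennedy pathway, which joins ethanolamine and choline to diacylglycerol to make phospholipids. The set holds 10 of the 7122 genes in the deposited table and was chosen by gene name, with earlier results of these data known. It comprises the transporter genes HXT1 to HXT7 and GAL2, and the sensor genes SNF3 and RGT2. All 10 were found and all 10 passed the filter on low counts. The 9 libraries of polyadenylated RNA comprise 3 of ect1Δ pct1Δ, 3 of cpt1Δ ept1Δ and 3 of wild type (WT), all in the prototrophic CEN.PK background, grown to log phase in minimal synthetic medium with 2% glucose. ECT1 and PCT1 encode the enzymes that make the CDP-linked intermediates of the pathway, and CPT1 and EPT1 those that join them to diacylglycerol. No label says whether a strain is a single clone or whether its 3 libraries came from separate cultures, so each p-value sets a difference against library-to-library spread that could be technical.

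Yeast takes up glucose by facilitated diffusion through the Hxt proteins of the plasma membrane. Hxt1 and Hxt3 are low-affinity carriers suited to plentiful glucose, while Hxt2, Hxt4, Hxt6 and Hxt7 have higher affinity and serve cells short of it. Snf3 and Rgt2 resemble transporters but act as receptors: glucose binding leads, through the casein kinases Yck1 and Yck2 and the ubiquitin ligase subunit Grr1, to loss of the corepressors Mth1 and Std1, which frees HXT promoters from the repressor Rgt1. In high glucose a second repressor, Mig1, keeps the genes of the higher-affinity carriers low. The balance of HXT transcripts therefore serves as a readout of the glucose that cells sense.

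Total counts ran from 5669951 to 11793688 per library. The 4 deleted genes stood at no more than 0.74 FPKM in the strain labelled as lacking them and at 100.63 to 200.68 FPKM in the other groups, as the titles have it, whereas PAH1 and DGK1 are the genes given in the design text of the series. The prototrophy genes URA3, LEU2, HIS3 and TRP1 were at 50.07 FPKM or more in every library. On the leading principal component, which took 22.98% of the variance, WT replicate 3 (13.0) and ect1Δ pct1Δ replicate 2 (7.32) were set off from the rest of their groups. FPKM, the count scaled by gene length and library total, is used for levels, and CPM, the count scaled by library total alone, where stated.

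The low-affinity carriers HXT3 and HXT1 held most of the summed FPKM of the transporter genes in every library, with the limit that this sum takes HXT6 and HXT7 at FPKM values that cannot be read as their RNA level. With HXT6 and HXT7 left out, HXT3 was the most abundant of the other 8 genes, HXT1 the next and HXT4 the next after that, in all 3 groups. HXT3 took 66.9 to 68.6% of the summed FPKM of the 8 transporter genes in ect1Δ pct1Δ, 67.0 to 68.5% in cpt1Δ ept1Δ and 63.7 to 65.9% in WT. HXT1 took 19.6 to 22.4%, 19.3 to 20.3% and 19.3 to 21.5% in the same groups. The other 6 carriers together accounted for 10.7 to 12.4% in ect1Δ pct1Δ, 11.9 to 12.7% in cpt1Δ ept1Δ and 14.1 to 14.8% in WT, most of it HXT4. By mean FPKM, HXT3 ranked 211 in ect1Δ pct1Δ, 211 in cpt1Δ ept1Δ and 221 in WT among the 7122 genes of the table.

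Below these came RGT2, HXT2 and HXT5, then SNF3 and GAL2. HXT6 and HXT7 were listed at 2.06 FPKM or less but are left out of the order, because their coding sequences are nearly identical. Among the other 8 genes, the libraries of neighbours in the order did not overlap for 6 of 7 pairs in each group. SNF3 and GAL2 overlapped in all 3 groups, so their order is not resolved.

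**Figure D1:**
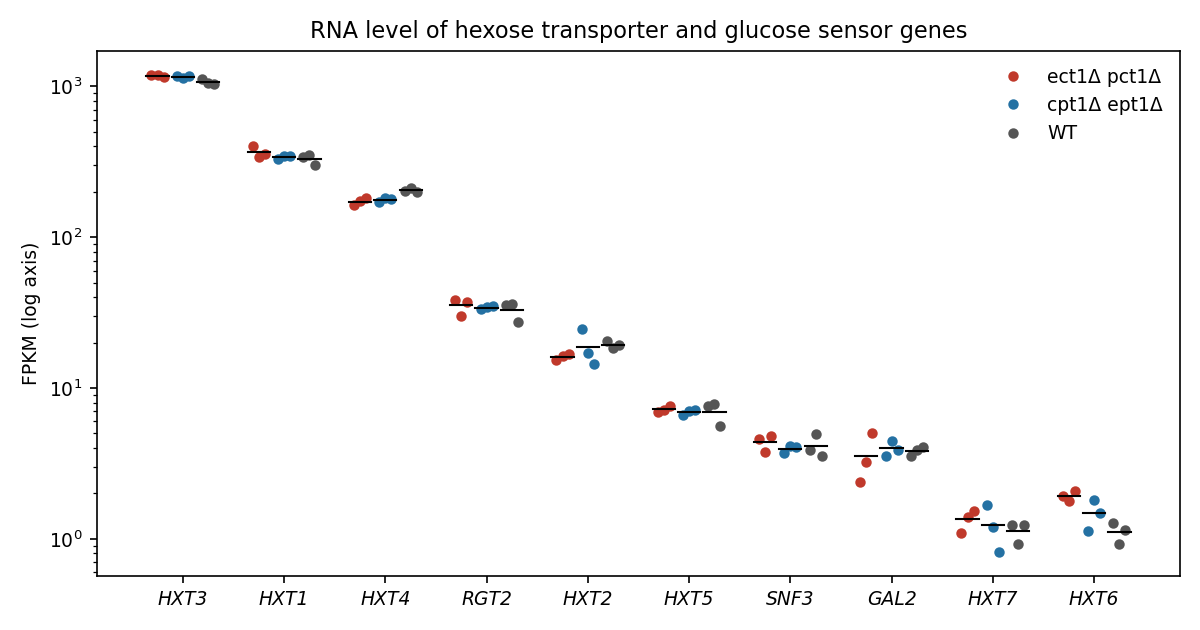
FPKM (log axis) of each gene, ordered by its WT mean; each point is a library, horizontal lines are group means of 3 libraries, and the groups from left to right are ect1Δ pct1Δ, cpt1Δ ept1Δ and WT. HXT3 lies above 1000 FPKM in all 9 libraries, and HXT6 and HXT7, whose FPKM cannot be read as their RNA level, are listed near 1 to 2 FPKM.

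HXT4, the carrier of intermediate to high affinity that is induced when glucose is low, was the only one of the 10 genes that passed the test, and it fell in ect1Δ pct1Δ. HXT4 (YHR092C, chromosome VIII, 287081 to 288811, minus strand, build R64) stood at 163.47, 172.74 and 180.72 FPKM in ect1Δ pct1Δ, at 171.19, 183.12 and 179.05 FPKM in cpt1Δ ept1Δ, and at 203.86, 211.66 and 200.52 FPKM in WT. Every library of either deletion strain was below every WT library. HXT4 RNA in ect1Δ pct1Δ was 83.5% of WT, a log2 fold change of -0.26 ± 0.06 (SE) with an adjusted p of 0.0461 (edgeR's quasi-likelihood test, Benjamini-Hochberg over 6083 genes). That makes 1 of 10 genes called, where 0.46% of all tested genes were called in this comparison (0.197% lower, 0.263% higher). The set was chosen with earlier results of these data known, so this contrast is given as a description. These are bulk RNA measurements, in which less RNA per cell and fewer cells with the RNA cannot be told apart.

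In cpt1Δ ept1Δ, HXT4 stood at 86.7% of WT, a log2 fold change of -0.21 ± 0.06, which did not pass (edgeR, Benjamini-Hochberg adjusted p = 0.326). Tested against each other, cpt1Δ ept1Δ and ect1Δ pct1Δ differed by 0.05 ± 0.06 on the log2 scale at HXT4 (edgeR, Benjamini-Hochberg adjusted p = 0.999), so a difference between the deletion strains was not shown. The comparisons with WT share the 3 WT libraries. The HXT4 call in ect1Δ pct1Δ lay close to the threshold. It was kept in 7 of 18 alternatives and lost in 11, with log2 fold changes of -0.29 to -0.22 throughout and edgeR, DESeq2 or limma Benjamini-Hochberg adjusted p-values of 0.00286 to 0.275. Among single libraries, leaving out any of the 3 of ect1Δ pct1Δ, replicate 2 or 3 of cpt1Δ ept1Δ, or replicate 1 or 2 of WT ended it; without both WT replicate 3 and ect1Δ pct1Δ replicate 2 it passed (edgeR, Benjamini-Hochberg adjusted p = 0.0369).

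Summed over the 11 listed markers of cultures past the diauxic shift and of general stress, FPKM was higher in both deletion strains than in WT. The summed level of all 11 was 177 to 225 FPKM in ect1Δ pct1Δ and 169 to 194 FPKM in cpt1Δ ept1Δ, against 149 to 155 FPKM in WT, and none of them was at 0 in all libraries. HSP12, HSP26 and DDR2, stress-induced genes picked out after their values were seen, summed to 122 to 164 FPKM in ect1Δ pct1Δ and 120 to 143 FPKM in cpt1Δ ept1Δ, against 97.8 to 103 FPKM in WT. Singly, none of these 3 lay apart from WT in both strains. HSP12 overlapped WT in both, HSP26 in ect1Δ pct1Δ and DDR2 in cpt1Δ ept1Δ. The other 8 summed to 54.6 to 60.8 FPKM in ect1Δ pct1Δ and 49.3 to 54.7 FPKM in cpt1Δ ept1Δ, against 49.9 to 54.4 FPKM in WT, so cpt1Δ ept1Δ overlapped WT.

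Of the 10 markers that were tested, 0 passed in any comparison with edgeR. In ect1Δ pct1Δ against WT 4 had an unadjusted p under 0.05 and in cpt1Δ ept1Δ against WT 1, beside 6.61% and 5.28% of all tested genes. The log2 fold changes of the markers were positive for 9 and negative for 1 in ect1Δ pct1Δ, with a median of 0.25. They were positive for 7 and negative for 3 in cpt1Δ ept1Δ, with a median of 0.08. Among all tested genes 51.2% and 49.2% were positive in these comparisons. HSP26, a small heat shock protein gene, stood at 45.97, 59.67 and 51.95 FPKM in ect1Δ pct1Δ, 61.79, 55.83 and 61.03 in cpt1Δ ept1Δ, and 41.63, 40.79 and 47.2 in WT. Its log2 fold change of 0.47 ± 0.11 in cpt1Δ ept1Δ had the smallest adjusted p of the markers (edgeR, Benjamini-Hochberg, 0.179), and DDR2 stood at 0.68 ± 0.19 in ect1Δ pct1Δ. TSL1, a trehalose synthesis gene, stood at -0.22 ± 0.15 in ect1Δ pct1Δ and -0.13 ± 0.15 in cpt1Δ ept1Δ, and in cpt1Δ ept1Δ ALD3, an aldehyde dehydrogenase gene, stood at -0.18 ± 0.17 and SSA3, a heat shock protein gene, at -0.06 ± 0.09. The part of these markers in the HXT4 result was not tested.

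HXT3 pointed the other way from HXT4 but did not pass. HXT3 (YDR345C, chromosome IV, 1162957 to 1164660, minus strand) stood at 1197.05, 1186.86 and 1150.99 FPKM in ect1Δ pct1Δ, 1172.17, 1134.82 and 1179.08 FPKM in cpt1Δ ept1Δ, and 1115.5, 1049.52 and 1030.62 FPKM in WT. The libraries of both deletion strains lay above those of WT. The log2 fold changes were 0.14 ± 0.05 in ect1Δ pct1Δ and 0.13 ± 0.05 in cpt1Δ ept1Δ against WT (edgeR, Benjamini-Hochberg adjusted p = 0.577 and 0.934).

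The ratio of HXT3 to HXT4, which does not depend on the scaling of a library, was 7.32, 6.87 and 6.37 in ect1Δ pct1Δ, 6.85, 6.20 and 6.59 in cpt1Δ ept1Δ, and 5.47, 4.96 and 5.14 in WT. The ratio was higher in all 6 deletion libraries than in any WT library; it was formed after both genes' values were known and is given as a description.

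**Figure D2:**
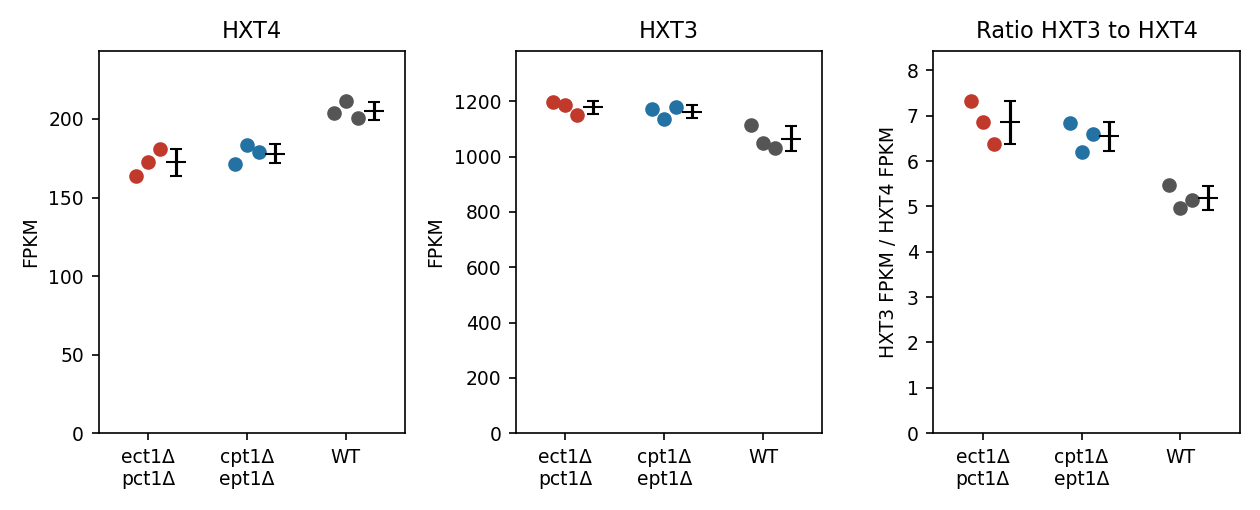
FPKM of HXT4 and of HXT3, and their ratio, on axes from 0; points are libraries and the black marks the mean ± SD of 3. HXT4 is below and HXT3 above the WT libraries in both deletion strains, and the ratio runs from 6.20 to 7.32 in the deletion libraries and from 4.96 to 5.47 in WT.

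HXT1, the low-affinity carrier induced by high glucose through Rgt2, overlapped between the groups. HXT1 (YHR094C, chromosome VIII, 290913 to 292625, minus strand) stood at 399.9, 339.61 and 354.54 FPKM in ect1Δ pct1Δ, 329.28, 344.66 and 347.21 in cpt1Δ ept1Δ, and 338.32, 353.31 and 301.28 in WT. The highest value belonged to ect1Δ pct1Δ replicate 1 and the lowest to WT replicate 3. Its log2 fold changes against WT were 0.13 ± 0.06 in ect1Δ pct1Δ and 0.04 ± 0.06 in cpt1Δ ept1Δ (edgeR, Benjamini-Hochberg adjusted p = 0.773 and 1.0), and the second turned to -0.01 without WT replicate 3.

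HXT2, a carrier induced by low glucose and repressed by high glucose, was at 15.33, 16.27 and 16.81 FPKM in ect1Δ pct1Δ, 24.73, 17.01 and 14.53 in cpt1Δ ept1Δ, and 20.39, 18.53 and 19.22 in WT. In cpt1Δ ept1Δ the libraries spread on both sides of WT, with both the highest and the lowest of the 9 values; in ect1Δ pct1Δ all 3 lay below WT. The log2 fold change of HXT2 (YMR011W, chromosome XIII, 288079 to 289704, plus strand) was -0.28 ± 0.15 in ect1Δ pct1Δ (edgeR, Benjamini-Hochberg adjusted p = 0.846) and -0.07 ± 0.14 in cpt1Δ ept1Δ (1.0), on 155 to 363 counts per library.

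HXT5, the carrier associated with slow growth and stress, was at 6.92, 7.1 and 7.63 FPKM in ect1Δ pct1Δ, 6.66, 7.05 and 7.13 in cpt1Δ ept1Δ, and 7.55, 7.8 and 5.58 in WT. WT held both the highest and the lowest value of HXT5 (YHR096C, chromosome VIII, 294669 to 296447, minus strand), so the groups overlapped fully. GAL2, the galactose permease, which also carries glucose and is induced by galactose, was at 2.38, 3.24 and 5.01 FPKM in ect1Δ pct1Δ, 3.54, 4.48 and 3.9 in cpt1Δ ept1Δ, and 3.55, 3.88 and 4.06 in WT. The ect1Δ pct1Δ libraries of GAL2 (YLR081W, chromosome XII, 290212 to 291936, plus strand) enclosed all the others, on 26 to 87 counts. Neither gene passed in any comparison, with log2 fold changes of 0.03 ± 0.15 and -0.13 ± 0.23 in ect1Δ pct1Δ and of -0.01 ± 0.14 and 0.08 ± 0.22 in cpt1Δ ept1Δ for HXT5 and GAL2 in turn.

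HXT6 and HXT7, neighbouring genes for high-affinity carriers on chromosome IV, had the fewest counts of the set, 10 to 36 and 10 to 28 per library. In build R64 their coding sequences differ at 3 of 1713 bases, all close to the 3′ end. These are T1632C, G1666A and T1677C, with HXT6's base first and positions counted from 1 at the A of the start codon. The stretch that holds all 3 is printed because it is the part of the coding sequence in which the genes differ (reads that run past its ends were not examined); it is the minus strand of chrIV:1159639-1159698 for HXT6 and of chrIV:1154247-1154306 for HXT7 in build R64 (RefSeq), with the differing bases in capitals.
HXT6: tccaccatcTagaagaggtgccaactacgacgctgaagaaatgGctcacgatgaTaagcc
HXT7: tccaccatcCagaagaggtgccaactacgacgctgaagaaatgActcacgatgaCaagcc

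In the reference genome 5.08% of the windows of 100 bases within the coding sequence of each of these genes occur once, and 4.93% and 5.24% at 50 and 150 bases. In the other 8 genes the share at 100 bases was at least 96.4%. The read length and the treatment of reads with several matches are not given in the sources used here, so the FPKM of HXT6 and HXT7 cannot be read as their RNA level, nor set in order with the others. The share of transporter RNA held by high-affinity carriers is uncertain for the same reason.

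**Figure D3:**
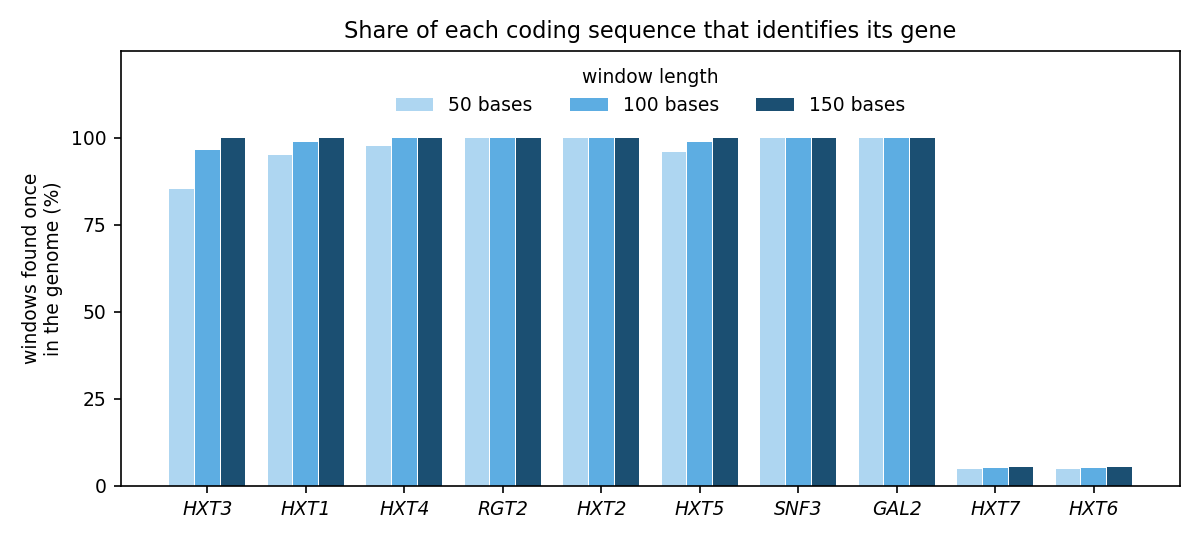
Share (%) of all windows of 50, 100 or 150 bases within each coding sequence that occur once in the R64 genome, both strands counted. HXT6 and HXT7 lie near 5%, the other 8 genes at 85.1% or more.

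HXT6 (YDR343C, 1159608 to 1161320, minus strand) was listed at 1.93, 1.78 and 2.06 FPKM in ect1Δ pct1Δ, 1.12, 1.82 and 1.48 in cpt1Δ ept1Δ, and 1.28, 0.93 and 1.14 in WT. The ect1Δ pct1Δ libraries lay above those of WT, with a log2 fold change of 0.73 ± 0.29 that did not pass (edgeR, Benjamini-Hochberg adjusted p = 0.641). HXT7 (YDR342C, 1154216 to 1155928, minus strand) was at 1.1, 1.39 and 1.54 FPKM in ect1Δ pct1Δ, 1.68, 1.19 and 0.82 in cpt1Δ ept1Δ, and 1.23, 0.93 and 1.24 in WT, and its groups overlapped. With the counts of both genes summed, the pair stood at 5.12, 5.48 and 6.11 CPM in ect1Δ pct1Δ and 4.78, 5.14 and 3.98 CPM in cpt1Δ ept1Δ, against 4.27, 3.18 and 4.15 CPM in WT, on 20 to 64 counts per library. The ect1Δ pct1Δ libraries lay above those of WT, and cpt1Δ ept1Δ overlapped WT. The sum had log2 fold changes of 0.51 ± 0.22 in ect1Δ pct1Δ and 0.24 ± 0.22 in cpt1Δ ept1Δ against WT (edgeR, Benjamini-Hochberg adjusted p = 0.677 and 1.0).

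Of the sensors, RGT2 was the more abundant throughout. Rgt2 responds to high and Snf3 to low glucose. RGT2 (YDL138W, chromosome IV, 213351 to 215642, plus strand) was at 38.4, 30.11 and 37.32 FPKM in ect1Δ pct1Δ, 33.21, 34.25 and 35 in cpt1Δ ept1Δ, and 35.7, 35.82 and 27.56 in WT. The low values belonged to ect1Δ pct1Δ replicate 2 and WT replicate 3, the libraries apart on the leading principal component. SNF3 (YDL194W, chromosome IV, 111580 to 114234, plus strand) was at 4.57, 3.74 and 4.78 FPKM in ect1Δ pct1Δ, 3.7, 4.12 and 4.05 in cpt1Δ ept1Δ, and 3.89, 4.92 and 3.56 in WT. The ratio of RGT2 to SNF3 in FPKM was 8.09 ± 0.30 in ect1Δ pct1Δ, 8.64 ± 0.33 in cpt1Δ ept1Δ and 8.07 ± 0.99 in WT (mean ± SD, n = 3 each).

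Neither sensor passed in any comparison. Against WT, the log2 fold changes of RGT2 were 0.07 ± 0.09 in ect1Δ pct1Δ and 0.04 ± 0.09 in cpt1Δ ept1Δ, and those of SNF3 were 0.06 ± 0.16 and -0.05 ± 0.16. By FPKM, WT replicate 3 was the lowest of the 9 libraries for RGT2, SNF3, HXT1, HXT3 and HXT5, that is for 5 of the 10 genes, and by TMM-scaled CPM for 4 of them, without HXT3. Without it the RGT2 values turned to -0.04 in ect1Δ pct1Δ and -0.05 in cpt1Δ ept1Δ.

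Over the whole set, 1 of 10 genes was called in ect1Δ pct1Δ against WT, 0 of 10 in cpt1Δ ept1Δ against WT (0.132% of all tested genes) and 0 of 10 between the deletion strains (0.197%). At an unadjusted p under 0.05 by edgeR these counts were 3, 2 and 0, beside 6.61%, 5.28% and 4.72% of all tested genes, and DESeq2 called 1, 0 and 0. The median log2 fold change was 0.06 in ect1Δ pct1Δ and 0.04 in cpt1Δ ept1Δ against WT, beside 0.0026 and -0.0018 for all tested genes. The libraries did not overlap for 4 genes in ect1Δ pct1Δ against WT (HXT2 and HXT4 lower, HXT3 and HXT6 higher), where this held for 10.6% of all tested genes (4.67% lower, 5.92% higher), and for 2 in cpt1Δ ept1Δ against WT (HXT4 lower, HXT3 higher), where it held for 10.4% (5.19% lower, 5.24% higher). Between the deletion strains it held for 0 of the 10 and for 10.3% of all tested genes. The deleted genes themselves were not taken out of the shares of all tested genes.

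**Figure D4:**
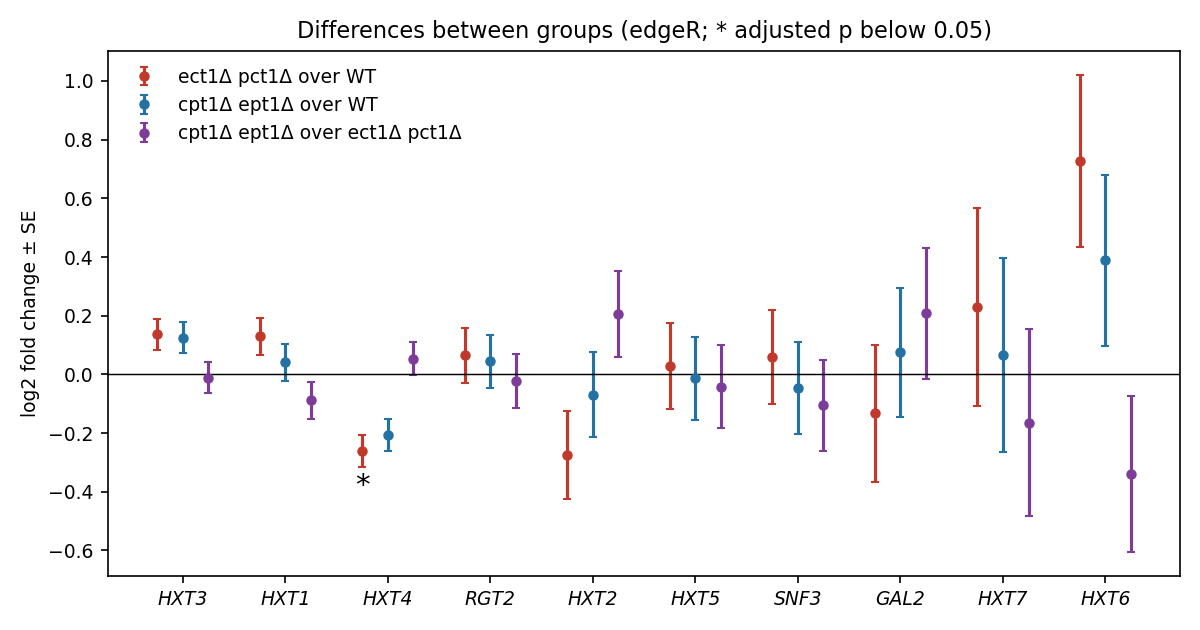
Log2 fold change ± SE by edgeR for each gene in the 3 comparisons, in the same order of genes as the plot of levels; the star marks an adjusted p below 0.05. Only HXT4 in ect1Δ pct1Δ over WT is starred, and the error bars widen for the genes with few counts.

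The regions upstream of the genes were searched for the words bound by known regulators, in the 1000 bases before the start codon, on both strands, in build R64. The sequence of the CEN.PK strains themselves was not examined here or for the coding sequences, and may differ. For Rgt1 the word was CGGANNA. HXT3 held 9 and HXT1 8, and of the 5996 upstream regions of this length only these reached 8. Of the 10 genes, 7 held at least 3, against 11.2% of all upstream regions, and SNF3 and RGT2 held 0. For Mig1 any of 4 words counted, each a pair of bases before a run of G: the word CCGGGG, then also the word CTGGGG, further the word GCGGGG, and last the word GTGGGG. HXT4 and HXT2 each held 4, which 0.83% of all regions reach, and HXT6 held 3, which 2.89% reach. In ect1Δ pct1Δ the libraries of HXT4 and HXT2 lay below those of WT and the listed values of HXT6 above them. Of all tested genes 4.67% lay below WT in this way and 5.92% above. In cpt1Δ ept1Δ HXT4 lay below WT, while HXT2 and HXT6 overlapped it. A link between these words and the RNA levels was not tested. For the stress response element the word was AGGGG, with 5 in HXT6, 4 in HXT7 and 3 in GAL2; at least 3 are held by 6.80% of all regions. The only shared base between words was 1 between an Rgt1 word and a stress response word of GAL2.

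Stretches of 200 bases are printed for HXT3, HXT1 and HXT4, the most abundant carriers with HXT6 and HXT7 left out. Each was chosen to hold the most Rgt1 words, counting only words that lie clear of its ends. For HXT3 the words at 538, 516, 442, 432, 401 and 360 bases before the start codon also fit in 200 bases. That is more words than the printed stretch of HXT3 holds, and the density elsewhere is not shown. The printed stretches hold 2 of the 3 Rgt1 words of HXT4, 5 of the 9 of HXT3 and 3 of the 8 of HXT1. Each is the minus strand, read 5′ to 3′ toward the start codon, from RefSeq build R64, with Rgt1 words of either strand in capitals (the reverse strand reads TNNTCCG). They are chrVIII:289091-289290 for HXT4 (2 words), chrIV:1165045-1165244 for HXT3 (5) and chrVIII:293008-293207 for HXT1 (3).
HXT4: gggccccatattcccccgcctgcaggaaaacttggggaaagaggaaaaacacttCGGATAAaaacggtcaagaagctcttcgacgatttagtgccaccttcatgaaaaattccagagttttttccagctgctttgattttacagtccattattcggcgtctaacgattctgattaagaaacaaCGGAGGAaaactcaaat
HXT3: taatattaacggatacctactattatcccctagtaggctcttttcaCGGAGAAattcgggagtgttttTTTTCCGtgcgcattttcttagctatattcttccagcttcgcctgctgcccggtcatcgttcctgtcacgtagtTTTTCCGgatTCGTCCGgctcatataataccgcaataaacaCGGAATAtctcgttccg
HXT1: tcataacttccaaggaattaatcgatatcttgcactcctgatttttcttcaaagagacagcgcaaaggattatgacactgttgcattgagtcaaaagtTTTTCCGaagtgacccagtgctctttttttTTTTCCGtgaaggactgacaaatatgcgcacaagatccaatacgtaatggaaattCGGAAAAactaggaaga
The HXT4 stretch shares 149 bases with AHT1 (YHR093W), which had 2 to 22 counts per library, and the HXT1 stretch lies within YHR095W, with 1 to 13 counts. A match of letters is a description and does not show that the factor binds there.

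**Figure D5:**
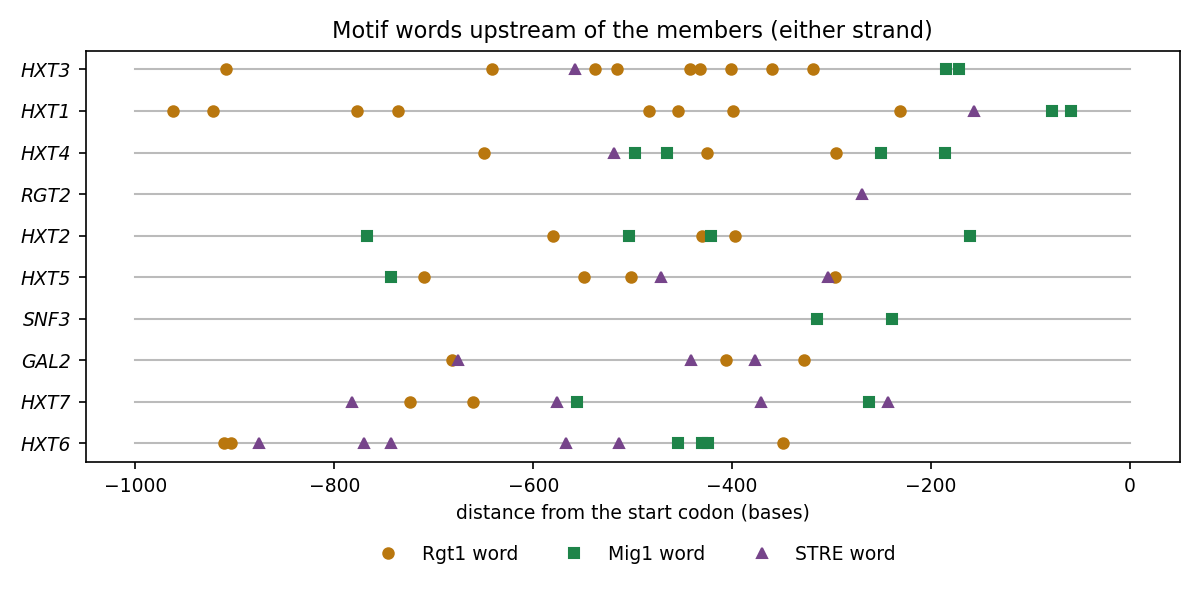
Positions of Rgt1, Mig1 and stress response element (STRE) words in the 1000 bases before the start codon of each gene, either strand, in the same order of genes as the plot of levels. HXT3 (9) and HXT1 (8) hold the most Rgt1 words, and HXT4 and HXT2 hold 4 Mig1 words each.

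Among the genes that carry the signal from the sensors to the promoters, 0 of 12 passed in any comparison by edgeR, with 2, 1 and 1 at an unadjusted p under 0.05 in ect1Δ pct1Δ against WT, in cpt1Δ ept1Δ against WT and between the deletion strains. Of all tested genes 6.61%, 5.28% and 4.72% were under 0.05 in the same comparisons, beside which the lists that follow are also to be read. MTH1, the corepressor of HXT genes, had the smallest p and stood at 30.9, 27.7 and 34.2 CPM in ect1Δ pct1Δ, 24.99, 28.1 and 32.2 in cpt1Δ ept1Δ, and 25.8, 21.1 and 23.4 in WT. Its log2 fold change against WT was 0.38 ± 0.12 in ect1Δ pct1Δ (edgeR, Benjamini-Hochberg adjusted p = 0.394) and 0.27 ± 0.12 in cpt1Δ ept1Δ (0.938). STD1, its paralog, stood at 0.17 ± 0.07 and 0.01 ± 0.07.

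The genes of the Snf1 kinase and Mig1 repressor pathway had 0 of 13 called by edgeR in each comparison, with 0, 0 and 2 at an unadjusted p under 0.05. ELM1, a kinase that activates Snf1, and MIG2, a repressor related to Mig1, were those 2, with -0.17 ± 0.08 and -0.16 ± 0.08 in cpt1Δ ept1Δ against ect1Δ pct1Δ. Of the 17 glucose-repressed genes of other sugars and carbon sources 0 were called by edgeR, with 1 at an unadjusted p under 0.05 in each comparison. They were positive in 13 cases in ect1Δ pct1Δ and 14 in cpt1Δ ept1Δ against WT, with medians of 0.12 in both, beside 51.2% and 49.2% positive among all tested genes. MAL32, a maltase gene, stood at 0.72 ± 0.24 in cpt1Δ ept1Δ and SIP4, an activator of gluconeogenic genes, at -0.46 ± 0.19 in ect1Δ pct1Δ. MAL32 was low, at 1.56 to 3.19 FPKM over the 9 libraries, and how far it shares sequence with other genes was not examined. SUC2, the invertase gene and a standard marker of glucose repression, was at 41.33 to 48.14 FPKM over the 9 libraries.

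The kinases that trap hexose inside the cell had 0 of 4 called by edgeR in each comparison, with 2, 0 and 1 at an unadjusted p under 0.05. HXK2, the main hexokinase in high glucose, stood at 661.92 to 734.53 FPKM over the 9 libraries, while HXK1, its glucose-repressed isoenzyme, stood at 2.13 to 5.93 FPKM. GLK1, the glucokinase gene, was at 36.21, 45.41 and 43.06 FPKM in ect1Δ pct1Δ, 36.87, 31.65 and 35.33 in cpt1Δ ept1Δ, and 33.72, 33.2 and 37.15 in WT. Its log2 fold change in ect1Δ pct1Δ against WT was 0.27 ± 0.10 (edgeR, Benjamini-Hochberg adjusted p = 0.506) and that of HXK1 0.60 ± 0.28.

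The remaining HXT genes were listed at low FPKM, but how far they share sequence with other genes was not examined. The 9 genes HXT8 to HXT11 and HXT13 to HXT17 summed to 10.4 to 13.3 FPKM in ect1Δ pct1Δ, 10.6 to 12.3 in cpt1Δ ept1Δ and 11.4 to 12.6 in WT. Of these, 4 passed the filter on low counts and 0 were called by edgeR, with 0 at an unadjusted p under 0.05. HXT8, at 4.19 to 6.29 FPKM, was the highest, and HXT15, at 0.56 to 2.04 FPKM, had log2 fold changes of 0.44 ± 0.43 in ect1Δ pct1Δ and 0.54 ± 0.41 in cpt1Δ ept1Δ against WT.

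HXT6, GAL2 and HXT7 varied most over the 9 libraries, with SDs of log2 CPM of 0.33, 0.28 and 0.26, and they are also the genes with the fewest counts. The named genes closest to each in their centred log2 CPM over these libraries were MTH1, POX1 and EEB1 for HXT6 (root mean square differences of 0.17, 0.18 and 0.19), IMP2, EMP46 and SOL1 for GAL2 (0.15 each), and SPC29, GAS2 and MAL11 for HXT7 (0.11, 0.11 and 0.15), out of 4906 compared. HXT3 varied least, with an SD of 0.08.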

How the data were processed

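Polyadenylated RNA of 9 yeast libraries was analysed from 1 table of 7122 genes. For each gene the authors deposited raw counts beside FPKM values. Per the submitters' processing notes, HISAT2 2.2.1, HTSeq 0.6.1 and build R64 were used, their roles unstated; the sources used here do not give how strand and multiply matching reads were handled. Per the file headers the second unit is FPKM, and it equals the count scaled by gene length and library total for 99.9% of 64098 values (within 0.0051 or a relative 0.002). The 4 lines that hold no values and the 6 columns without a sample were not analysed here. Groups were taken from the titles. The counts went into edgeR 4.0.16 (R 4.3.3; glmQLFit and glmQLFTest, TMM, filterByExpr by group, 6083 of 7122 genes kept, all libraries in 1 fit without covariates); two-sided p-values were adjusted by Benjamini and Hochberg over all genes tested and called below 0.05. SE is the log2 fold change over the square root of F. CPM are TMM-scaled. With 3 libraries against 3 an exact permutation test cannot give a p under 0.1, so none is given. The calculation was tested on simulated data with 50 genes changed at each size. Of 1.25-fold changes it recovered 54% in ect1Δ pct1Δ against WT and 58% in cpt1Δ ept1Δ against WT. Of 2-fold changes it recovered 96% and 100%. Genes that were not called may therefore still differ by small amounts. Alternatives were RLE factors, no filter, DESeq2 1.42.0, limma 3.58.1 on log2(FPKM + 1) or log2(FPKM + 0.1), 2-group fits, a replicate block, leaving libraries out, and summing HXT6 and HXT7. Coding sequences were aligned globally with Biopython 1.88. All 10 loci match RefSeq R64. Members, lists and tests were chosen with earlier results of these data known. Named are the members, the deleted genes, called list genes or else the 2 with the smallest p of each list, and for the 3 members with the largest SD the 3 closest genes (log2 of CPM + 0.5); HXK2, SUC2, GAL1, HSP12, TSL1, ALD3, SSA3, AHT1 and YHR095W were added after their values were seen. ATO1 was matched as ADY2.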

Additional observations from a re-analysis of the deposited data

How the results depend on the processing

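HXT4 stayed below WT in ect1Δ pct1Δ under all 18 alternatives. The count of members called in ect1Δ pct1Δ against WT, 1 as reported, was 0 with either limma fit, with only the 2 groups compared and with the replicate block, and 0 to 1 when single libraries were left out. With the replicate block HXT4 had an edgeR Benjamini-Hochberg adjusted p of 0.0597, and the block changed no other call of a member. Only 1 of 9 same-numbered pairs deviated together with r over 0.1 (-0.268 to 0.264). With so few libraries per group this cannot show whether same-numbered libraries were handled together. Over all genes, 28 calls in ect1Δ pct1Δ against WT became 13 and 12 with limma on log2(FPKM + 1) and log2(FPKM + 0.1), and 17 to 40 with 1 library left out, the 17 without WT replicate 1. The 8 in cpt1Δ ept1Δ against WT became 17 with DESeq2, 4 with either limma fit, 16 without WT replicate 3 and ect1Δ pct1Δ replicate 2, and 4 to 9 with 1 library left out, the 4 without cpt1Δ ept1Δ replicate 2. The 12 between the strains became 23 without those 2 libraries. The cause was not tested. Of 534 member values under the alternatives 29 changed sign, none of them called. With single libraries left out, the log2 fold changes whose sign turned ranged as follows. In ect1Δ pct1Δ against WT, HXT5 ran from -0.0867 to 0.0949, GAL2 from -0.3902 to 0.0582, SNF3 from -0.0138 to 0.1866 and RGT2 from -0.0364 to 0.1666. In cpt1Δ ept1Δ against WT, HXT1 ran from -0.0107 to 0.0842, HXT2 from -0.3022 to 0.0801, HXT5 from -0.1259 to 0.0527, HXT7 from -0.1848 to 0.2943, GAL2 from -0.0165 to 0.1444, SNF3 from -0.1151 to 0.0805 and RGT2 from -0.0535 to 0.1030. Between the strains, HXT2 ran from -0.0234 to 0.3552, HXT3 from -0.0322 to 0.0103, HXT7 from -0.4116 to 0.0636 and RGT2 from -0.1248 to 0.0383. With WT replicate 3 and ect1Δ pct1Δ replicate 2 both left out, signs changed for HXT5 in ect1Δ pct1Δ (-0.0875), HXT1 (-0.0105) and RGT2 (-0.0532) in cpt1Δ ept1Δ, and HXT3 between the strains (0.0080); limma gave 0.0060 and 0.0086 for HXT5 in cpt1Δ ept1Δ. All 120 recomputed group levels moved by less than 1 SD. Counts of 10 to 36 limit HXT6 and HXT7.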

Other observations

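Gene groups next to hexose uptake were also without called members. Of the 8 galactose genes 7 were tested and 0 were called by edgeR, with 0, 0 and 1 at an unadjusted p under 0.05 in ect1Δ pct1Δ against WT, in cpt1Δ ept1Δ against WT and between the deletion strains; GAL80, the repressor of the galactose regulon, was that gene (0.19 ± 0.08), and PGM2, a phosphoglucomutase gene, stood at -0.23 ± 0.12 in the same comparison, as cpt1Δ ept1Δ over ect1Δ pct1Δ. GAL1, the galactokinase gene, was at 4.31 to 7.02 FPKM over the 9 libraries, near GAL2. The 11 genes of the Gpr1 and protein kinase A pathway had 0 called by edgeR and 1, 0 and 1 at an unadjusted p under 0.05: PDE1, a cAMP phosphodiesterase gene, stood at 0.24 ± 0.08 in ect1Δ pct1Δ against WT and at -0.19 ± 0.08 in cpt1Δ ept1Δ against ect1Δ pct1Δ, and RAS1 at 0.12 ± 0.06 between the deletion strains.

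Of 8 genes for the ubiquitination and turnover of transporters 0 were called by edgeR, with 0 at an unadjusted p under 0.05. ROD1, an arrestin-like adaptor of the ubiquitin ligase Rsp5, stood at -0.14 ± 0.11 in ect1Δ pct1Δ and -0.18 ± 0.11 in cpt1Δ ept1Δ against WT, and BUL1, another Rsp5 adaptor gene, at 0.01 ± 0.07 and -0.08 ± 0.07. The prototrophy genes had 0 of 4 called by edgeR and 1 at an unadjusted p under 0.05, TRP1 in cpt1Δ ept1Δ against WT (0.22 ± 0.10), while URA3 stood at -0.10 ± 0.07 there.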
